A study of Mus musculus with 6 samples.

Results

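Cecr2 and the ISWI chromatin remodeler genes were examined in bone marrow (BM) erythroblasts of P38α+/- and P38α-/- mice recovering from anemia. The set held 10 genes, Cecr2, Smarca1, Smarca5, Bptf, Baz1a, Baz1b, Baz2a, Baz2b, Rsf1 and Chrac1, and its members were all the non-control array probes that carried 1 of these gene names. These were 19 of the 55681 non-control probes, and 15 of the 19 met the condition for a test, a signal well above background on the 3 arrays of P38α+/-, of P38α-/- or of both. Cecr2 was chosen by its lower log2 fold change in this same comparison, so its values are given as a description with no test, and the other 9 genes were chosen for their function with results of these data known.

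Total RNA from 6 mice, 3 of each genotype, was hybridised with 1 Cy3-labelled array per mouse (Agilent Whole-Mouse Genome Oligo Microarrays, 10 ng RNA each). All mice carried Mx1-Cre, which is induced by PolyIC (300 µg, 3 injections) in cells that respond to interferon rather than in erythroid cells alone. The P38α+/- controls carried 1 floxed allele of P38α and had therefore also been through PolyIC and Cre, and the P38α-/- mice carried a floxed allele on each chromosome. Male and female mice on a C57Bl/6 background were 6 to 8 weeks old at the injections, rested for 6 weeks, and then received phenylhydrazine (PHZ, 100 mg/kg), which lyses red cells. CD71highTer119+ erythroblasts were sorted on day 4 of the recovery.

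Mapk14, which encodes P38α, was not lower in the P38α-/- arrays. Its brighter probe had a log2 fold change of 0.54 ± 0.19 (P38α-/- minus P38α+/-, ± SE, n = 3 and 3, limma adjusted p = 0.19) and the other 0.01 ± 0.42 (adjusted p = 0.99). The probes' place relative to the floxed part was not given in the sources used here, so they check neither label, and direction is that of the arrays labelled P38α-/-. By genomic PCR and immunoblot, the paper reports excision of the allele and loss of the protein in sorted erythroblasts of such mice. Between 28.5% and 53.1% of probes were well above background per array, the highest share being on P38α+/- replicate 1 and the lowest on P38α-/- replicate 1. P38α-/- replicate 3 was alone on its slide. Relative to each array's 75th percentile, the median tested probe was lower by 0.16 on the log2 scale in P38α-/-, and each change below can be read against that shift.

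ISWI remodelers are motors that use ATP to slide and space nucleosomes. The ATPase subunit, SNF2H (encoded by Smarca5) or SNF2L (Smarca1), works with a large partner protein that decides where the complex acts: BPTF in NURF, ACF1 (Baz1a) in ACF and CHRAC, WSTF (Baz1b) in WICH, TIP5 (Baz2a) in the ribosomal DNA silencing complex NoRC, RSF1 in RSF and CECR2 in CERF. Many of these partners carry a bromodomain, a module that binds acetylated lysine, and loss of Smarca5 in mice is known to block definitive erythropoiesis.

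The probe sequences that read the difference in Cecr2, the least reproducible member and the undetected ATPase are shown, since each result is the signal of a single 60-base oligonucleotide. Each was read 5′ to 3′ from the array files, which place it on mouse build mm9. In each, 1 of the 3 reading frames holds no stop codon, and capitals mark the whole codons of that frame, which number 20 in Cecr2 and 19 in Rsf1 and Smarca1.
Cecr2, chr6:120681312-120681371, plus strand: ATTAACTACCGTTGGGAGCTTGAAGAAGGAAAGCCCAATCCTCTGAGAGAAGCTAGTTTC
Rsf1, chr7:104834203-104834262, plus strand: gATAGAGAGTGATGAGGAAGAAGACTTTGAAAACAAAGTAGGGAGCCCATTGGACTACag
Smarca1, chrX:45176550-45176609, minus strand: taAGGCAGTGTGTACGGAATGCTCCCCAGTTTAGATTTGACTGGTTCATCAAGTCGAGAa

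Cecr2, the partner that defines the CERF complex, was lower in P38α-/- erythroblasts with each of its 3 probes. On each probe all 3 P38α-/- arrays lay below all 3 P38α+/- arrays, a pattern that 20.6% of all tested probes had. The brightest probe, shown above, begins at base 416 of the transcript NM_001128151. Its scaled signals, in log2 units relative to the array's 75th percentile, were -2.63, -2.55 and -2.74 in the P38α+/- mice and -4.70, -4.38 and -4.49 in the P38α-/- mice. The genotypes were thus separated by a gap far wider than the spread within either, and the log2 fold change was -1.88 ± 0.16, a signal 3.69-fold lower. This probe was well above background on all 6 arrays.

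Both other Cecr2 probes lay further 3′, on chromosome 6 at 120716836 to 120716895 and at 120720521 to 120720580. The probe at transcript base 4839 gave -5.14, -5.31 and -5.23 in P38α+/- mice against -6.43, -6.51 and -8.01 in P38α-/- mice, a log2 fold change of -1.76 ± 0.43. The probe at base 8524 gave -5.69, -5.54 and -5.54 against -7.69, -8.35 and -8.13, a log2 fold change of -2.47 ± 0.20. On both, the P38α+/- arrays agreed closely, whereas no P38α-/- array was well above background. The fold is therefore given as a lower bound, which holds for the main processing only. Both thus met the condition for a test through the P38α+/- arrays alone, and their lower signals are not separate support for the first probe. For this bound the P38α+/- mean was set against the dimmest signal still well above background on each P38α-/- array, or the probe's own signal where higher. In the main processing the signal at base 4839 was then at least 1.92-fold lower and that at base 8524 at least 1.55-fold lower. P38α-/- replicate 3 carried much of the difference at base 4839, where the log2 fold change without it was -1.25. With a model-based background correction (normexp) the log2 fold changes of the 3 probes, from 5′ to 3′, shrank to -1.08, -0.34 and -0.41. At bases 4839 and 8524 these were smaller differences than the bounds above.

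Cecr2 was also set against other members on the same array, a ratio that subtracting an array's percentile leaves as it is. Relative to Smarca5, the signal of the brightest Cecr2 probe differed by -1.85 on the log2 scale between genotypes, with SDs over the 3 mice of 0.11 in P38α+/- and 0.10 in P38α-/-. Relative to Bptf it differed by -1.80, with SDs of 0.11 and 0.046. Both ratios describe an unequal change within the array and carry the choice of Cecr2 for its lower signal.

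**Figure D1:**
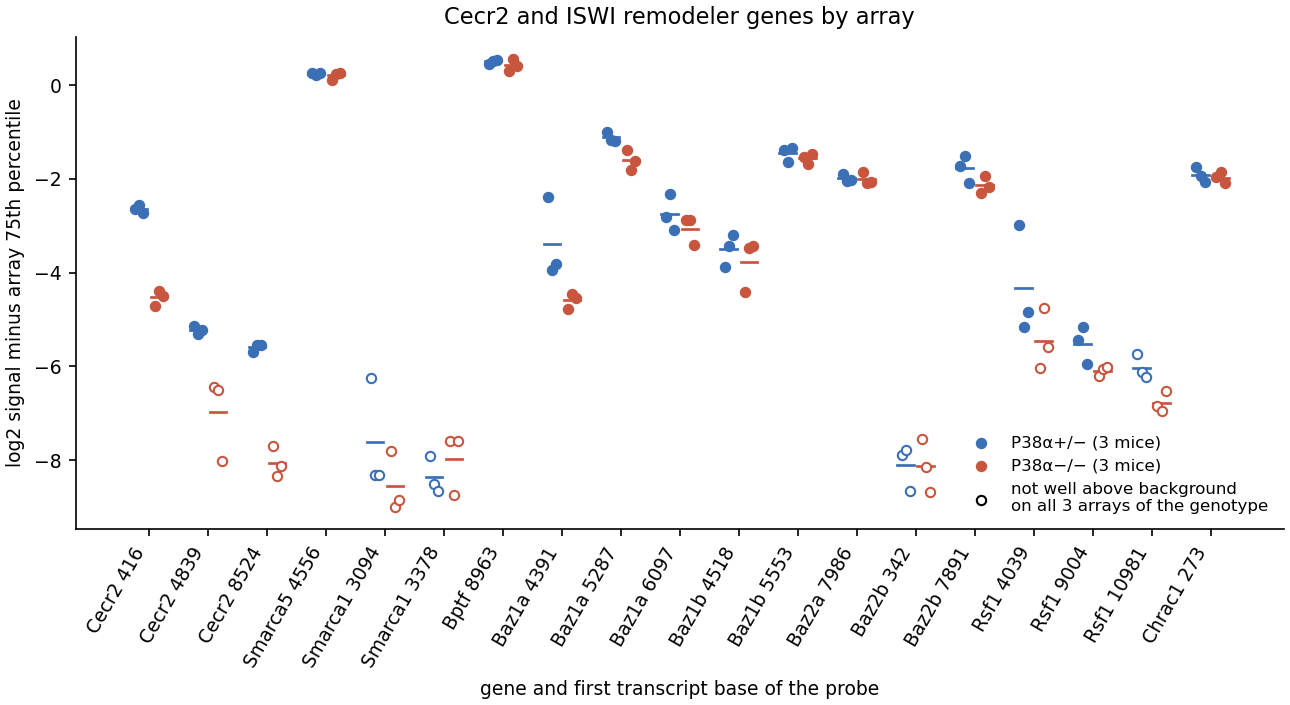
Scaled log2 signal (array 75th percentile = 0) of every probe of the 10 genes on each array, with horizontal bars for the mean of the 3 mice of a genotype; open circles are probes not well above background on all 3 arrays of that genotype. The 3 Cecr2 probes separate the genotypes, Smarca5 and Bptf coincide in both, and Smarca1 is undetected; heights of different probes are not comparable.

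Smarca5, the ATPase of most ISWI complexes in blood cells, differed between genotypes by less than the spread among mice. Its signals were 0.26, 0.22 and 0.26 in P38α+/- mice and 0.12, 0.24 and 0.27 in P38α-/- mice, so the groups overlapped and the whole range over 6 arrays was 0.15. The log2 fold change was -0.04 ± 0.14 (limma, adjusted p = 0.91). It was 0.12 above the median probe, and its sign turned with the scaling, to 0.45 when the percentile was taken over all probes and to 0.33 with spike-in centring.

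Smarca1, the other ISWI ATPase, stayed at background on the 6 arrays with both of its 2 probes. The probe printed above gave -6.24, -8.31 and -8.31 in P38α+/- mice, and P38α+/- replicate 1 alone stood above the rest. Neither probe was tested, and no direction is given.

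Bptf, the bromodomain partner that recognises trimethylated lysine 4 of histone H3 in NURF, gave 0.46, 0.53 and 0.54 in P38α+/- mice and 0.30, 0.56 and 0.42 in P38α-/- mice. The genotypes overlapped, with a log2 fold change of -0.08 ± 0.15 (limma, adjusted p = 0.79). Bptf is the member whose protein is closest in kind to CECR2, a large ISWI partner with a bromodomain, and its genotypes overlapped where those of Cecr2 did not.

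Baz1a, which encodes ACF1, had 3 tested probes, which differed in the size of their negative log2 fold changes. The brightest, at transcript base 5287, gave -0.99, -1.16 and -1.19 in P38α+/- mice against -1.38, -1.80 and -1.63 in P38α-/- mice. Every P38α-/- array lay below every P38α+/- array there, but the log2 fold change of -0.49 ± 0.17 did not pass (limma, adjusted p = 0.18). The probe at base 4391, which spans an intron of the gene, gave -2.38, -3.95 and -3.81 against -4.78, -4.45 and -4.54. These groups did not overlap either, and P38α+/- replicate 1 stood well above the other two controls, with a log2 fold change of -1.21 ± 0.43 (limma, adjusted p = 0.19). The third, at base 6097, had overlapping groups and a log2 fold change of -0.32 ± 0.26 (limma, adjusted p = 0.53).

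Baz1b, which encodes WSTF, a kinase for the tyrosine at the tail of histone H2A.X, had overlapping groups with both probes, at -0.11 ± 0.16 (limma, adjusted p = 0.75) and -0.26 ± 0.33 (adjusted p = 0.69). The brighter of the pair spanned only 0.34 over the 6 arrays. Baz2a, the NoRC subunit, differed by -0.01 ± 0.15 on the log2 scale (adjusted p = 0.97), with all 6 arrays within 0.25 of each other. Baz2b, its close relative, gave -1.72, -1.51 and -2.09 against -2.29, -1.94 and -2.17, where 1 control lay among the P38α-/- arrays, and the log2 fold change was -0.36 ± 0.20 (adjusted p = 0.36). A second Baz2b probe stayed at background throughout and was not tested.

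Rsf1, the histone-binding partner in the RSF complex, was the least reproducible member. The probe printed above gave -2.97, -5.17 and -4.83 in P38α+/- mice and -6.04, -4.75 and -5.59 in P38α-/- mice. Only P38α+/- replicate 1 was high, and the other 2 controls lay among the P38α-/- arrays, so that the log2 fold change of -1.14 ± 0.63 did not pass (limma, adjusted p = 0.35). At base 9004 the groups lay close but did not overlap, at -5.44, -5.15 and -5.96 against -6.21, -6.06 and -6.01. Of all tested probes, 20.6% had this pattern, and the log2 fold change was -0.58 ± 0.23 (limma, adjusted p = 0.23). With both probes 2 of the 3 P38α-/- arrays were well above background. Both thus met the condition for a test through the P38α+/- arrays alone, where their mean signal was higher. The Rsf1 probe furthest 3′ was too dim to be tested.

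Chrac1, a small histone-fold subunit of CHRAC, ranged over only 0.34 on all 6 arrays. The groups overlapped, with a log2 fold change of -0.05 ± 0.16 (limma, adjusted p = 0.88).

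**Figure D2:**
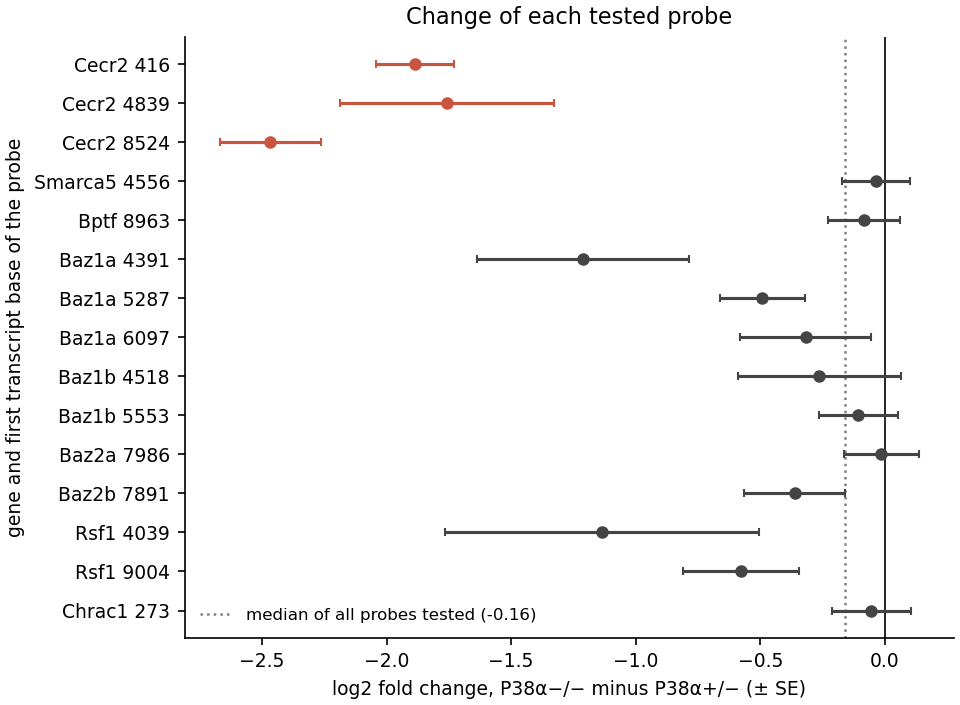
Log2 fold change (P38α-/- minus P38α+/-) with its standard error for the 15 tested probes; the dotted line is the median of all tested probes. The 3 Cecr2 probes lie between -2.47 and -1.76, and of the other members the probes of Smarca5, Bptf, Baz2a and Chrac1 lie between -0.08 and -0.01.

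Counted per gene by the brightest tested probe, none of the 8 other members with a tested probe passed the call rule of limma (adjusted p at most 0.05 and a fold of at least 2), and 1 of the 8, Baz1a, had an unadjusted p under 0.05, as did 20% of all genes tested. The methods' t-test also called 0 of them. Over all 14025 genes tested, 25 passed, or 0.178%, and 5 of these were lower in P38α-/-, or 0.0357%. Both the number and the split moved with the setting: 20 of the 25 were higher, against 16 of 58 with the replicate number as a block, 396 of 699 with the percentile taken over all probes, 10 of 11 with quantile normalization, 16 of 16 with normexp and 2 of 5 with spike-in centring. Baz1a was the 1 of the 8 whose P38α-/- arrays all lay below the P38α+/- arrays, a pattern that 19.5% of all genes had, whereas 7.3% had the opposite pattern and none of the 8 did. The 8 members had a median log2 fold change of -0.10, against -0.14 over all genes tested. All 12 of their tested probes had a negative log2 fold change in the main scaling, but Smarca5, Bptf, Baz1b, Baz2a, Baz2b and Chrac1 turned positive when the percentile was taken over all probes.

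By their brightest probes the smaller ISWI subunits gave log2 fold changes between -0.17 and 0.14. Pole3 (-0.17 ± 0.16), a histone-fold partner of Chrac1, Rbbp7 (-0.17 ± 0.25) and Rbbp4 (0.02 ± 0.19), histone chaperones of NURF and other complexes, and the gene of BAP18, 0610010K14Rik (0.14 ± 0.21), all had adjusted p of at least 0.58 in limma. The last was read in 2 P38α+/- mice, its spot being an outlier on the array of replicate 3. A second, dimmer probe gave 0.46 for Rbbp4, 0.02 for Rbbp7, 0.15 for 0610010K14Rik and -0.30 for Pole3. Those of Rbbp4 and 0610010K14Rik were again read in 2 P38α+/- mice. For that of Pole3 all P38α-/- arrays lay below all P38α+/- arrays, like 20.6% of all tested probes. Hmgxb4 was not tested.

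Other remodeler families gave no called gene. Of 107 tested genes in the 6 lists, 0 passed the call rule in limma, 18 had an unadjusted p under 0.05, against 20% of all genes, and the methods' t-test also called 0. Their median log2 fold change was -0.14, equal to that of all genes at this precision, and 25 of the 107 had all P38α-/- arrays below all P38α+/- arrays while 6 had the reverse, beside 19.5% and 7.3% of all genes. The 21 SWI/SNF (BAF) genes had a median of -0.23 and 8 genes with every P38α-/- array lower, a pattern of 19.5% of all genes. They ran from Arid2 (-1.17 ± 0.30), the AT-rich interaction subunit of PBAF, to Smarcc1, a core scaffold (0.15 ± 0.26). The 17 CHD and NuRD genes ran from Chd7 (-2.36 ± 0.59), a remodeler of enhancers, to Chd9 (0.83 ± 0.23).

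The 27 genes of the INO80, SRCAP and TIP60 complexes had a median of -0.13 and ran from the ATPase Ino80 (-1.08 ± 0.30) to Actr8, an actin-related subunit of the same complex, at 1.02 ± 0.21 (adjusted p = 0.097). The 12 other SNF2 ATPases lay between Smarcad1 (-0.72 ± 0.28) and Hltf (0.25 ± 0.15), with a median of -0.16. The 26 other bromodomain genes had a median of -0.24, from the ATPase Atad2 (-0.83 ± 0.17) to the acetyltransferase Kat2b (0.53 ± 0.38). By size alone, the only gene of these lists with a lower log2 fold change than the brightest Cecr2 probe was Chd7.

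**Figure D3:**
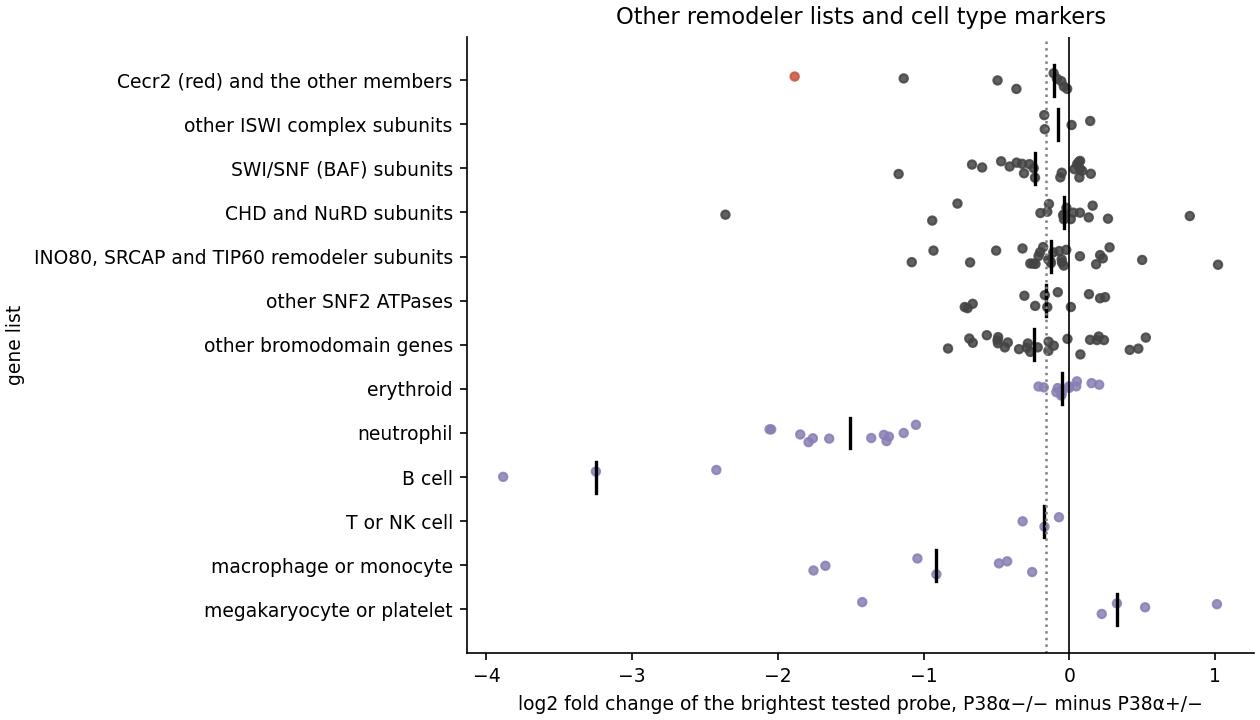
Log2 fold change (P38α-/- minus P38α+/-) of the brightest tested probe of each gene in the ISWI set with Cecr2 in red, in 6 other remodeler and bromodomain lists, and in 6 lists of cell type markers; vertical bars are list medians, and the dotted line is the median of all tested probes. The medians of the other remodeler lists lie between -0.24 and -0.04, while the neutrophil markers have a median of -1.50.

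Markers of other blood cells differed between the arrays too, although none passed the call rule. All 12 neutrophil markers tested had negative log2 fold changes, from -2.06 to -1.05. In limma 11 of them had an unadjusted p under 0.05, against 20% of all genes tested. In 10 of them all P38α-/- arrays lay below all P38α+/- arrays, a pattern that 19.5% of all genes had. The mean scaled signal of the 12 ranged from 1.26 to 2.95 on the P38α+/- arrays and from 0.19 to 0.86 on the P38α-/- arrays. Of 8 B cell markers 3 were tested, with a log2 fold change of -2.42 ± 1.05 for Cd79b (limma, adjusted p = 0.25). No P38α-/- array showed Ebf1 or Ms4a1 well above background, so both met the condition for a test through the P38α+/- arrays alone. By the same bound, for the main processing only, they were at least 3.48-fold and 2.94-fold lower in P38α-/-, given as a description with no test. All 7 macrophage or monocyte markers tested had negative values too, with a median of -0.91. The 3 T or NK cell markers tested had a median of -0.17, and of 5 megakaryocyte or platelet markers 4 had positive values, with a median of 0.33. The 13 erythroid markers tested had a median of -0.05 and a mean signal of 3.99 to 4.25 in P38α+/- and 4.01 to 4.30 in P38α-/-, so the label of the cells is borne by their own genes in both genotypes.

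Markers of other cells differed in their spread among the control mice. Among the T or NK cell markers tested the SD was 0.056 for Lck, 0.30 for Cd3e and 0.37 for Cd4. Among the neutrophil markers it ran from 0.57 for S100a9 to 1.38 for Prtn3. Cd79b, which encodes part of the B cell receptor, gave -1.15, -0.45 and -4.19 in the 3 P38α+/- mice, and Ebf1, a B lineage transcription factor, gave -3.39, -5.07 and -4.80, while the brightest Cecr2 probe had an SD of 0.091 over the same mice. The part of other cell types in the Cecr2 difference was not tested, and in sorted bulk cells fewer cells of a type and less RNA per cell cannot be told apart.

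Around Cecr2, the closest lower signals came from 5 probes of an interval that the array names for intergenic transcription, chr6:120670699-120677449 on the plus strand, the strand of Cecr2. The last of them ended 4.60 kb before the first Cecr2 probe. All 5 were tested and had log2 fold changes from -1.89 to -0.92, with adjusted p from 0.10 to 0.32 in limma, so none passed. Each was well above background on 1 or 2 of the 3 P38α-/- arrays. All 5 thus met the condition for a test through the P38α+/- arrays alone, and their lower signals are not separate support for the Cecr2 difference. On 3 of the 5, every P38α-/- array lay below every P38α+/- array, a pattern that 20.6% of all tested probes had. The probe closest to Cecr2 gave -3.81, -3.77 and -3.84 in P38α+/- mice and -6.62, -5.49 and -4.98 in P38α-/- mice. The 5 probes for the minus strand of the same interval were too dim to be tested, 4 of them on all 6 arrays. Whether the plus-strand probes read the Cecr2 transcript itself was not tested.

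**Figure D4:**
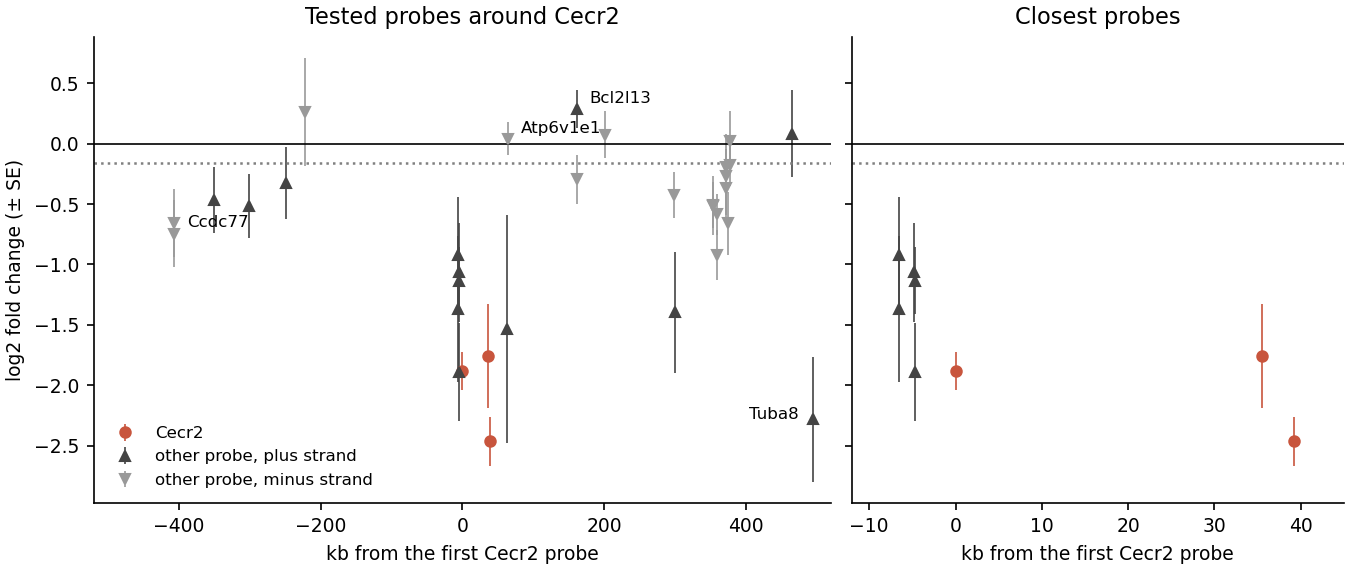
Log2 fold change (P38α-/- minus P38α+/-) with its standard error for tested probes within 500 kb of the Cecr2 probes, plotted by distance in kb from the first Cecr2 probe (left) and enlarged (right); the dotted line is the median of all tested probes. Cecr2 and the 5 plus-strand probes just before it lie between -2.47 and -0.92, while Atp6v1e1 at 64.3 kb and Bcl2l13 at 161 kb are above 0.

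The named genes around Cecr2 had log2 fold changes on both sides of 0. Atp6v1e1, a subunit of the vacuolar proton pump and the nearest named gene tested, gave 2.04, 1.92 and 2.03 against 2.09, 1.99 and 2.04, a log2 fold change of 0.04 ± 0.14 (limma, adjusted p = 0.90). On the same side, Bcl2l13, a BCL2 family member, was at 0.29 ± 0.16, Bid, a pro-apoptotic member of that family, at -0.29 ± 0.20, and Mical3, which acts on actin, at 0.08 ± 0.19 by its brighter probe and -0.43 ± 0.19 by the other. Further out, Gm9878 was at -1.40 ± 0.50 and met the condition for a test through the P38α+/- arrays alone. On the other side, Hdhd5 was at 0.26 ± 0.45, the interleukin 17 receptor gene Il17ra at -0.32 ± 0.30, the histone demethylase gene Kdm5a at -0.52 ± 0.27, D230014I24Rik at -0.47 ± 0.28 and Ccdc77 at -0.74 ± 0.28. At the far edge of the window, Pex26 was at 0.08 ± 0.36 and the tubulin gene Tuba8 at -2.28 ± 0.52 (limma, adjusted p = 0.11). Of these 12 named genes 7 had negative values, and the median log2 fold change was -0.31. The call rule was passed by 0 of them in limma or in the methods' t-test. In limma 3, Ccdc77, Gm9878 and Tuba8, had an unadjusted p under 0.05, against 20% of all genes tested. In the same 3 all P38α-/- arrays lay below all P38α+/- arrays, a pattern that 19.5% of all genes had. Bcl2l13 had the opposite pattern, as did 7.3% of all genes. The dimmer Mical3 probe also had every P38α-/- array lower, like 20.6% of all tested probes. A probe with no gene name at 63.0 kb gave -2.58, -6.08 and -6.02 against -6.24, -6.17 and -6.87, where P38α+/- replicate 1 alone was high, a log2 fold change of -1.53 ± 0.94 (adjusted p = 0.40).

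The array profile of Cecr2 was compared with that of the other 15149 probes well above background on all 6 arrays. Among the genes most like its brightest probe were Dclre1c, a nuclease of DNA end joining (Pearson r = 0.996 over the 6 arrays), Med6, a Mediator subunit (0.993), Ppp6r2, a regulatory subunit of protein phosphatase 6 (0.992), and the zinc finger gene Zfp110 (0.991). These likenesses are descriptions over 6 arrays that share 2 genotypes, and 180 probes, or 1.19%, had an r of at least 0.95. The log2 fold changes of these 4 genes were smaller in size than that of Cecr2, from -0.70 for Dclre1c to -0.30 for Med6. Of the other members compared, Baz1a had the highest r (0.83), then Baz2b (0.74), Bptf (0.55) and Smarca5 (0.41), and Baz2a had the lowest (-0.0072). Each r includes the gene's own difference between genotypes and was not taken within a genotype.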

How the data were processed

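Each array was scanned and extracted with Agilent Feature Extraction 10.7.3.1, per the file headers, and the authors deposited the processed spot intensity (gProcessedSignal) for each of 6 arrays. The authors also deposited a matrix of normalized intensities, which was taken to the log2 scale here. Its rank correlation with the scanner values was 0.898 for P38α-/- replicate 2 and above 0.999 for the others. The array's annotation, including probe positions, is on mouse build mm9, with symbols updated through RefSeq tables.

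Spots flagged as outliers in feature or background were left out and spots of a probe averaged on the log2 scale. From each array its 75th percentile was subtracted, taken over the 15150 probes whose signal cleared background on all 6 arrays. The 18547 probes that did so on the 3 arrays of at least 1 genotype were fitted with limma 3.58.1 (R 4.3.3; lmFit, eBayes, two-sided, Benjamini-Hochberg over all tested probes), and a probe was called at an adjusted p of at most 0.05 and a fold of at least 2. On simulated data with 200 changed probes the script called 186 probes, of which 176 were changed ones. Python 3.11.15 and pandas 2.3.3 were used for summaries.

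Members, lists and tests were chosen with earlier results of these data known. Named were all 10 members, the other ISWI subunits, the most positive and most negative gene of each other list, genes within 500 kb of the Cecr2 probes, and the 5 genes most like Cecr2 by Pearson r, 1 of which is not reported here. Samples were grouped by the genotype in the labels. Same-numbered arrays deviated together (r = 0.54, 0.31 and 0.42), and the highest r of any other pair was 0.18. The reported fit was nonetheless unpaired, and replicate numbers paired the samples only in the alternative with a replicate block. The alternatives were quantile normalization, 2 other centrings, normexp, a stricter and no filter for dim probes, the log2 of the authors' matrix, a replicate block, the slide as a block, array weights, any tested probe per gene, the methods' t-test and leaving out each array.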

Additional observations from a re-analysis of the deposited data

How the results depend on the processing

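None of the 8 other members was called under any of the 18 alternatives that tested it. Each Cecr2 probe kept a negative log2 fold change in every alternative that tested it, from -1.96 to -1.08 at transcript base 416, -2.05 to -0.34 at base 4839 and -2.65 to -0.41 at base 8524. The values at bases 416, 4839 and 8524 all moved by more than the spread between mice with normexp background correction (-1.08, -0.34 and -0.41), quantile normalization (-1.53, -0.71 and -1.62) and the authors' normalized values (-1.68, -0.76 and -0.99). Taking the 75th percentile over all probes gave -1.40 at base 416 and -1.98 at base 8524, and spike-in centring gave -1.52 and -2.10. The stricter filter on dim probes left bases 4839 and 8524 and Rsf1 untested. Leaving out 1 array gave -1.96 to -1.80 at base 416, -2.03 to -1.25 at base 4839 and -2.65 to -2.32 at base 8524.

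Members near 0 turned sign with the scaling. With the 75th percentile over all probes, where the median of all tested probes was 0.32 in place of -0.16, the log2 fold changes were 0.45 for Smarca5, 0.40 for Bptf, 0.38 for Baz1b, 0.47 for Baz2a, 0.12 for Baz2b and 0.43 for Chrac1. With spike-in centring (median 0.21) they were 0.33, 0.28, 0.26, 0.35, 0.0033 and 0.31. Quantile normalization turned Baz1b to 0.0038, Baz2a to 0.13 and Chrac1 to 0.075, normexp turned Smarca5 to 0.019 and Baz2a to 0.049, the authors' normalized values turned Baz2a to 0.097 and Chrac1 to 0.083, the slide block turned Baz2a to 0.016 and Chrac1 to 0.0065, and array weights turned Smarca5 to 0.0039. Leaving out 1 array gave -0.068 to 0.0081 for Smarca5, -0.091 to 0.034 for Baz2a and -0.13 to 0.027 for Chrac1. The cause was not tested. Read against the median of all probes, Baz1a, Baz2b, Rsf1 and Cecr2 stayed below it, and Baz2a and Chrac1 above it, under every alternative run.

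The number of genes called over the whole array depended on the setting. It was 25 in the reported fit, 699 with the percentile over all probes, 413 with array weights, 58 with the replicate block, 55 with the stricter filter, 16 with normexp, 11 with quantile normalization, 10 with the authors' normalized values, 5 with spike-in centring, 2 with the methods' t-test, and 0 with no filter or with the slide as a block. Leaving out 1 array gave 0 to 81. The slide block amounts to leaving out P38α-/- replicate 3. Of the other remodeler genes, 3 were called with the percentile over all probes (Actr8, Chd7 and Chd9) and 3 with array weights (Actr8, Chd2 and Chd7). The replicate block, which pairs same-numbered mice, changed no call by brightest probe among the members or the other remodelers. Signal over background limits the Cecr2 folds at bases 4839 and 8524, and 3 arrays a genotype limit the precision of each value.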
